A study of Homo sapiens with 4 samples.

Results

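The genes described here are 33 human genes of cholesterol synthesis, uptake and export, taken by gene name out of 58174 genes with a deposited expression value. They comprise 7 enzymes of the mevalonate steps, 11 enzymes of the squalene and sterol steps, 5 genes of sterol sensing, 5 of uptake and intracellular transport, 4 of export and its LXR control, and the esterifying enzyme SOAT1. All 33 are protein-coding, and all passed the filter on low values, 1 or more FPKM (fragments per kilobase of gene, relative to all mapped fragments) in at least 1 library. RNA was sequenced from LM3, a hepatocellular carcinoma cell line, and RBE, an intrahepatic cholangiocarcinoma cell line, 48 h after lipofection. The transfected RNA was si-FENDRR, a small interfering RNA whose target is FENDRR, a long noncoding RNA, or si-NC, the negative control. There was 1 library for each line and transfection, which gives 4 groups: LM3 with si-FENDRR, LM3 with si-NC, RBE with si-FENDRR and RBE with si-NC. All 4 cultures were grown in the same serum-containing medium and all received lipofection reagent, and no library of untransfected cells was used here. Each cancer type is represented by 1 line, so line and cancer type cannot be told apart.

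Cholesterol is built from acetyl-CoA through mevalonate, isoprenoid diphosphates and squalene, and the first ring compound, lanosterol, is then trimmed and reduced to cholesterol. When sterols are scarce, SCAP carries the SREBP transcription factors from the endoplasmic reticulum to the Golgi for cleavage, and the released fragments switch on synthesis and uptake genes. When sterols are plentiful, INSIG proteins hold SCAP back, and oxysterols activate the LXR receptors, which induce export through ABCA1 and ABCG1. Hepatocytes make, take up and secrete large amounts of cholesterol and turn part of it into bile acids, whereas cholangiocytes line the bile ducts.

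SREBP-2 binds sterol regulatory elements, often beside boxes for NF-Y and Sp1, so these letters were searched on both strands in RefSeq promoters (GRCh38.p14) from 250 bases before to 50 bases after a start site. Of the 33 genes, 28 had an entry, with 38 promoters, and ACAT2, FDFT1, SQLE, SCARB1 and ABCG1 had none. The sterol regulatory element TCACNCCAC was in 1 of the 38 (2.6%), that of SREBF2, against 1.1% of 35116 promoters of all genes. The NF-Y box CCAAT was in 22 of the 38 (57.9%), against 34.6% of all promoters. Among the synthesis enzymes it was in 15 of 20 promoters (75.0%), and among the other members in 7 of 18 (38.9%). The Sp1 box GGGCGG was in 33 of the 38 (86.8%), against 45.0% of all. A match says only that the letters are in the window. Elements spelled otherwise or lying outside the window were not searched, so a promoter without a match may still hold one. The 4 promoters printed lie on the plus strand. SREBF2 (chr22:41832855-41833154) is the member with a match to TCACNCCAC. TM7SF2 (chr11:65111622-65111921) and HSD17B7 (chr1:162790452-162790751) are the enzymes lowest in LM3 relative to RBE. NSDHL (chrX:152830813-152831112) is the enzyme listed at 0 in RBE. Capitals mark the sterol regulatory element in SREBF2 and NF-Y boxes in all 4 (read as ATTGG on the printed strand where the box lies on the other one).
SREBF2: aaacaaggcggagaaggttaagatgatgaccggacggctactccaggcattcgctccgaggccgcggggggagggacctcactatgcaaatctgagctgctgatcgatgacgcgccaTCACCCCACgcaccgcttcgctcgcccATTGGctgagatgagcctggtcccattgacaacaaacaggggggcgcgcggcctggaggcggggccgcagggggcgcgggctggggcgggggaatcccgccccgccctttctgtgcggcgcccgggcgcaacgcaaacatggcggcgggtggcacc
TM7SF2: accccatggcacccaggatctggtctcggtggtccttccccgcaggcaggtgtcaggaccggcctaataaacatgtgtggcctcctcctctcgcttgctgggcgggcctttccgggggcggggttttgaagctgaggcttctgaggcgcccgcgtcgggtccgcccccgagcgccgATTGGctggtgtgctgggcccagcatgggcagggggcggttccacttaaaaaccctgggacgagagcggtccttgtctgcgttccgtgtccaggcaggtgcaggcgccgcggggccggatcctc
HSD17B7: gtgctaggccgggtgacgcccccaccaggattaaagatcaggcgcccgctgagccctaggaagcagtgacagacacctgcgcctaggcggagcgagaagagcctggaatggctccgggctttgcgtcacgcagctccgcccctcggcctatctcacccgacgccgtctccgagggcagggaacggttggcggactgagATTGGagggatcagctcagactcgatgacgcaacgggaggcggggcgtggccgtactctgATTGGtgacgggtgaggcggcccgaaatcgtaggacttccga
NSDHL: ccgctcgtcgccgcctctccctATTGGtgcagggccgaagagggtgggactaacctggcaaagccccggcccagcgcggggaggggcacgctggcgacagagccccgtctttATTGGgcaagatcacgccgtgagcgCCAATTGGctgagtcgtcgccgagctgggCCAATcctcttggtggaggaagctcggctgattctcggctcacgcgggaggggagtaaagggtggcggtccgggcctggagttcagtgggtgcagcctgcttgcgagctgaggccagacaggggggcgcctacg
In SREBF2 the sterol regulatory element TCACCCCAC began at position -133 relative to the start site and an NF-Y box at -106. TM7SF2 had 1 NF-Y box, at -74. HSD17B7 had an NF-Y box at -52 and another at 8. NSDHL had 5 such boxes, of which a pair overlapped as CCAATTGG.

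Against their cell types, the libraries were mixed. Of the hepatocyte markers ALB had 35.7 FPKM (si-FENDRR) and 33.3 FPKM (si-NC) in LM3, against 0.251 FPKM (si-FENDRR) and 0.270 FPKM (si-NC) in RBE. SERPINA1 ran the other way, with 0.0957 FPKM (si-FENDRR) and 0.0892 FPKM (si-NC) in LM3, against 56.8 FPKM (si-FENDRR) and 82.5 FPKM (si-NC) in RBE, and APOC3 was listed at 0 in every library. Of 9 hepatocyte markers tested, 4 were called higher in LM3 (32.3% of all genes) and 3 higher in RBE (26.4% of all genes). The summed level of the list was 156.2 to 161.5 FPKM in LM3 and 133.7 to 170.9 FPKM in RBE. Of 9 cholangiocyte markers tested, 1 was called higher in LM3 and 7 higher in RBE. KRT7, a keratin of bile duct cells, had 7.21 FPKM (si-FENDRR) and 6.02 FPKM (si-NC) in LM3, against 429 FPKM (si-FENDRR) and 391 FPKM (si-NC) in RBE. Fibroblast, leukocyte and endothelial marker lists summed to at most 30.4 FPKM in any library, led by LUM, with 28.4 FPKM (si-FENDRR) and 24.9 FPKM (si-NC) in LM3, and LYZ, with 12.7 FPKM (si-FENDRR) and 12.5 FPKM (si-NC) in RBE. A library had 13437 to 13682 genes at 1 FPKM or more.

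The comparison of LM3 with RBE asks how the cholesterol genes differ between a line of hepatocytic and a line of biliary cancer. Most synthesis enzymes were lower in LM3, whereas NPC1, NPC1L1, SCARB1 and SOAT1, genes of uptake, transport and storage, were higher in LM3. Of the other uptake and transport genes, STARD4 was lower in LM3 and NPC2 was not called in either direction. In a limma fit over 15930 genes with terms for line and transfection, 24 of the 33 genes passed a Benjamini-Hochberg adjusted p of 0.05, against 58.7% of all genes tested. There were 9 genes higher in LM3, against 32.3% of all genes, and 15 lower in LM3, against 26.4% of all genes. The 24 are 72.7% of the members, and differences between the lines were common across all genes. Among the 24, NSDHL, NPC1L1 and ABCG1 passed the filter through a single line, so for them a difference was built in. For 12 genes both LM3 values were above both RBE values (44.3% of all genes), and for 16 both LM3 values were below both RBE values (37.4% of all genes). The ranges of the lines overlapped for SQLE, EBP, SREBF1, INSIG1 and ABCA1. On the log2(FPKM + 1) scale, at least 2-fold differences were seen for 13 genes, 4 higher and 9 lower in LM3, where 31.2% of all genes differed this much in either direction.

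Differences between the lines are given as log2(FPKM + 1) of LM3 minus RBE with the standard error from limma, over 2 libraries per line that differ in transfection. These errors and p-values do not measure spread between repeat cultures, since the labels name none. They combine how alike a gene's line difference was under the 2 transfections with a prior variance drawn from all genes tested. The error of SCAP was thus 0.11, although its line differences were as close as 0.764 (si-FENDRR) and 0.755 (si-NC). In bulk RNA, fewer expressing cells and less RNA per cell cannot be told apart. The fits with 1 library left out had a term for line alone. A transfection difference thus counted as residual spread in them. Whether a call was lost through the library or the term was not tested. Without the LM3 si-FENDRR library 20 members and 43.2% of all genes were called, the calls lost being HMGCS1, NR1H3, SC5D and SREBF2. Without the LM3 si-NC library 21 members and 43.8% of all genes were called, the losses being HMGCS1, IDI1 and SC5D. Without the RBE si-FENDRR library 18 members and 36.6% of all genes were called, and not DHCR7, IDI1, INSIG2, NR1H2, NR1H3 and SREBF2. Without the RBE si-NC library 17 members and 35.0% of all genes were called, and not DHCR7, HMGCS1, INSIG2, NR1H2, NR1H3, SC5D and SREBF2. The other genes called with all 4 libraries stayed called without each library in turn, in the same direction. They include NSDHL, NPC1L1 and ABCG1, which passed the filter through a single line. For these a difference was built in, so staying called adds nothing.

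**Figure D1:**
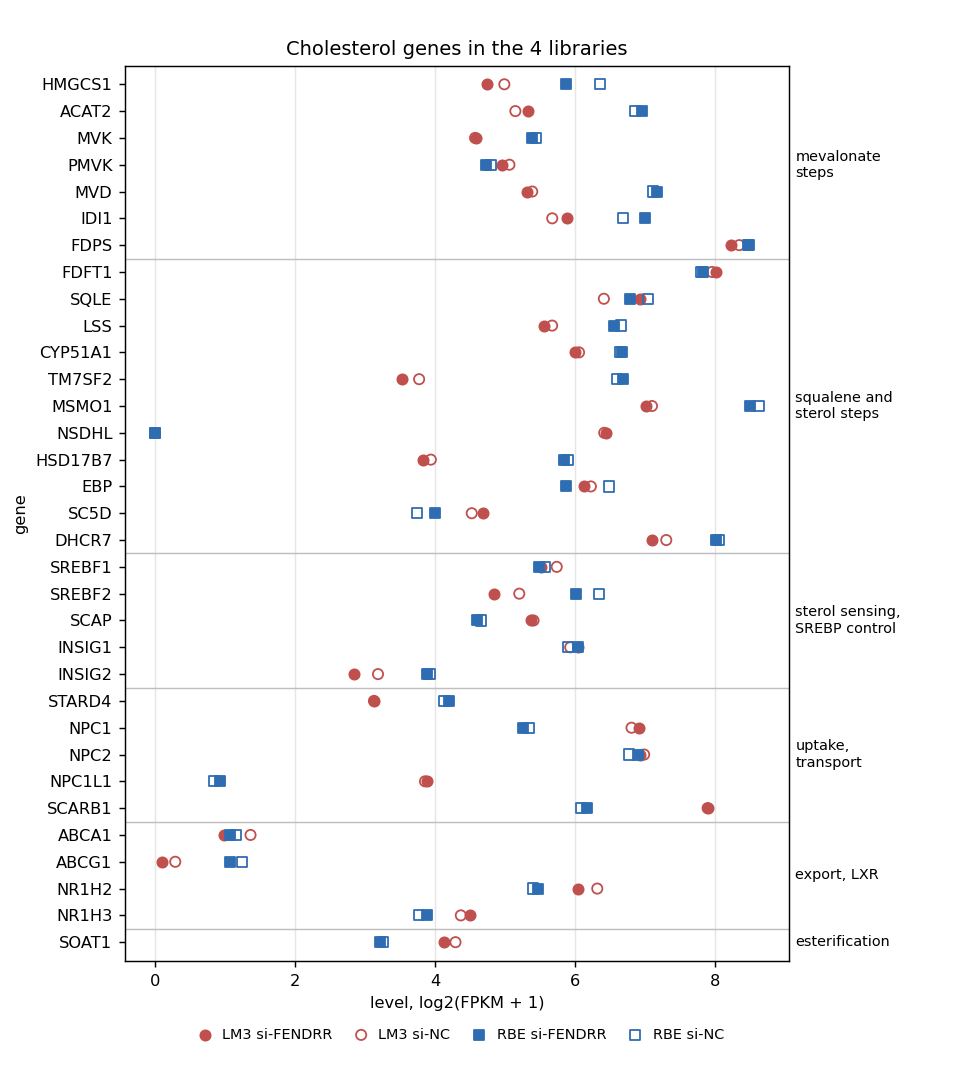
Levels of the 33 genes as log2(FPKM + 1), with 1 point per library; circles are LM3 and squares RBE, filled for si-FENDRR and open for si-NC, and horizontal lines separate the roles. LM3 circles lie left of RBE squares for most synthesis enzymes and right of them for NPC1, NPC1L1 and SCARB1, and the RBE squares of NSDHL stand at 0.

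The mevalonate enzymes make isoprenoid diphosphates from acetyl-CoA. Gene spans are given on GRCh38 from GENCODE 29. Of the 7, 5 were called lower in LM3 (26.4% of all genes) and 0 higher (32.3% of all genes), with a median difference of -1.06, against 0.09 over all genes tested. ACAT2, the cytosolic thiolase that joins acetyl-CoA units, had 39.2 FPKM (si-FENDRR) and 34.4 FPKM (si-NC) in LM3, against 123 FPKM (si-FENDRR) and 115 FPKM (si-NC) in RBE. The LM3 libraries were well under both RBE libraries, with RBE at 3.23 times the LM3 mean and a difference of -1.67 ± 0.11, adjusted p = 0.00181. HMGCS1 (chr5:43289395-43313512, minus strand), which adds the next acetyl group to form HMG-CoA, had 25.7 FPKM (si-FENDRR) and 30.7 FPKM (si-NC) in LM3, against 57.6 FPKM (si-FENDRR) and 80.7 FPKM (si-NC) in RBE. The lines did not overlap and differed by -1.25 ± 0.12, adjusted p = 0.00378, although the libraries of each line also lay apart. MVK, which phosphorylates mevalonate, had 23.0 FPKM (si-FENDRR) and 22.7 FPKM (si-NC) in LM3, against 40.9 FPKM (si-FENDRR) and 42.4 FPKM (si-NC) in RBE, a difference of -0.84 ± 0.11, adjusted p = 0.00697. MVD, the decarboxylase that yields isopentenyl diphosphate, had 38.9 FPKM (si-FENDRR) and 40.8 FPKM (si-NC) in LM3, against 142 FPKM (si-FENDRR) and 137 FPKM (si-NC) in RBE. It was the mevalonate enzyme furthest apart between the lines, at 3.51 times the LM3 mean in RBE and a difference of -1.79 ± 0.11, adjusted p = 0.00164. IDI1, the isomerase of isopentenyl diphosphate, had 58.2 FPKM (si-FENDRR) and 49.97 FPKM (si-NC) in LM3, against 127 FPKM (si-FENDRR) and 102 FPKM (si-NC) in RBE, and the lines did not overlap (-1.06 ± 0.11, adjusted p = 0.00397).

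PMVK and FDPS, on either side of MVD and IDI1 in the pathway, did not pass the test between the lines. PMVK, which adds the second phosphate to mevalonate, had 29.8 FPKM (si-FENDRR) and 32.3 FPKM (si-NC) in LM3, against 25.4 FPKM (si-FENDRR) and 26.6 FPKM (si-NC) in RBE, with a difference of 0.25 ± 0.11, adjusted p = 0.127. FDPS, which makes farnesyl diphosphate, had 299 FPKM (si-FENDRR) and 324 FPKM (si-NC) in LM3, against 358 FPKM (si-FENDRR) and 353 FPKM (si-NC) in RBE, with a difference of -0.19 ± 0.10, adjusted p = 0.177. FDPS was the most abundant of the 33 genes in both LM3 libraries and the second most abundant in both RBE libraries.

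The squalene and sterol steps held both lower and higher enzymes. Of 11, 6 were called lower in LM3 (26.4% of all genes) and 2 higher (32.3% of all genes), with a median difference of -0.63. FDFT1 (squalene synthase) and SQLE (squalene epoxidase), the first 2 enzymes after the isoprenoid branch point, did not pass the test: FDFT1 had 256 FPKM (si-FENDRR) and 247 FPKM (si-NC) in LM3, against 225 FPKM (si-FENDRR) and 222 FPKM (si-NC) in RBE, a difference of 0.17 ± 0.10, adjusted p = 0.211. SQLE (chr8:124998497-125022283, plus strand) had 120.1 FPKM (si-FENDRR) and 84.0 FPKM (si-NC) in LM3, against 109 FPKM (si-FENDRR) and 130.4 FPKM (si-NC) in RBE, so the LM3 and RBE values were interleaved, with a difference of -0.25 ± 0.22, adjusted p = 0.383. LSS, which closes squalene epoxide into lanosterol, had 46.0 FPKM (si-FENDRR) and 49.9 FPKM (si-NC) in LM3, against 93.2 FPKM (si-FENDRR) and 99.96 FPKM (si-NC) in RBE. Its LM3 values were near one another and below both RBE values (-0.99 ± 0.10, adjusted p = 0.00435). CYP51A1, the lanosterol demethylase, had 62.7 FPKM (si-FENDRR) and 65.4 FPKM (si-NC) in LM3, against 101 FPKM (si-FENDRR) and 98.3 FPKM (si-NC) in RBE, a smaller gap of -0.63 ± 0.11, adjusted p = 0.0124.

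The widest gap among enzymes present in both lines was in TM7SF2 (chr11:65111845-65116384, plus strand), a sterol C14 reductase. It had 10.5 FPKM (si-FENDRR) and 12.6 FPKM (si-NC) in LM3, against 102 FPKM (si-FENDRR) and 96.1 FPKM (si-NC) in RBE. RBE was at 8.54 times the LM3 mean, with a difference of -2.99 ± 0.14, adjusted p = 0.0011, and an exon of TM7SF2 shares bases with VPS51 on the same strand. MSMO1 (chr4:165327623-165343160, plus strand), the C4 methyl sterol oxidase, had 128 FPKM (si-FENDRR) and 136 FPKM (si-NC) in LM3, against 361 FPKM (si-FENDRR) and 393 FPKM (si-NC) in RBE. It was the most abundant member in both RBE libraries and differed by -1.51 ± 0.10, adjusted p = 0.00183. HSD17B7 (chr1:162790702-162812817, plus strand), the 3-ketosteroid reductase of C4 demethylation, had 13.1 FPKM (si-FENDRR) and 14.3 FPKM (si-NC) in LM3, against 56.1 FPKM (si-FENDRR) and 58.3 FPKM (si-NC) in RBE, without overlap and with a difference of -1.98 ± 0.11, adjusted p = 0.00146. Its pseudogene HSD17B7P2 had 0.335 FPKM (si-FENDRR) and 0.334 FPKM (si-NC) in LM3, against 7.72 FPKM (si-FENDRR) and 6.91 FPKM (si-NC) in RBE, and reads could be split between these near copies, so the size is uncertain.

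Of the late enzymes, EBP, SC5D and DHCR7 were not called alike between the lines. EBP (chrX:48521158-48528716, plus strand), the sterol isomerase, had 68.9 FPKM (si-FENDRR) and 73.7 FPKM (si-NC) in LM3, against 57.2 FPKM (si-FENDRR) and 88.3 FPKM (si-NC) in RBE, and its mean was nearly equal in the lines (0.00 ± 0.17, adjusted p = 0.985). SC5D, the C5 desaturase, had 24.7 FPKM (si-FENDRR) and 22.0 FPKM (si-NC) in LM3, against 15.0 FPKM (si-FENDRR) and 12.4 FPKM (si-NC) in RBE, and both LM3 libraries were higher (0.73 ± 0.12, adjusted p = 0.0105). DHCR7, which takes 7-dehydrocholesterol to cholesterol, had 136 FPKM (si-FENDRR) and 157 FPKM (si-NC) in LM3, against 258 FPKM (si-FENDRR) and 264 FPKM (si-NC) in RBE, and both LM3 libraries were lower (-0.84 ± 0.11, adjusted p = 0.00666). Summed over the 18 synthesis enzymes, the level was 1465.2 FPKM (si-FENDRR) and 1480.5 FPKM (si-NC) in LM3, against 2250.5 FPKM (si-FENDRR) and 2319.7 FPKM (si-NC) in RBE. In all, 11 of the 18 were called lower in LM3 (26.4% of all genes) and 2 higher (32.3% of all genes), with a median difference of -0.84. NSDHL, among those called higher, passed the filter through LM3 alone.

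**Figure D2:**
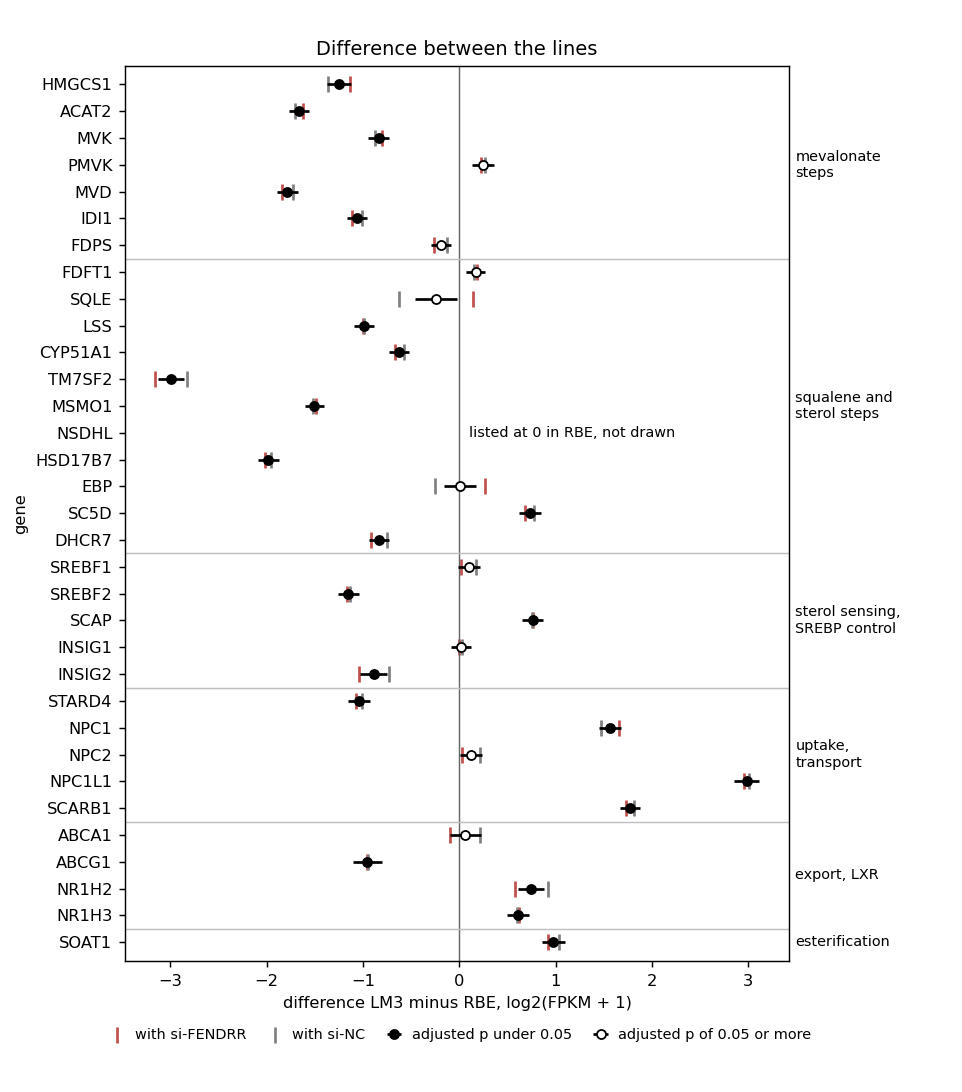
Difference LM3 minus RBE in log2(FPKM + 1) for 32 of the 33 genes, grouped by role; circles with bars are the limma estimate and its standard error, filled where the adjusted p is under 0.05, and ticks are the difference with si-FENDRR (red) and with si-NC (grey). Most enzymes lie left of 0, while SCARB1, NPC1 and NPC1L1 lie furthest right, and the ticks straddle 0 for SQLE, EBP, INSIG1 and ABCA1; NSDHL is not drawn because it is listed at 0 in RBE.

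NSDHL, the C4 decarboxylating sterol dehydrogenase on the X chromosome (chrX:152830967-152869729, plus strand, GENCODE 29), stood apart from the other members. It had 86.1 FPKM (si-FENDRR) and 84.3 FPKM (si-NC) in LM3, and was listed at 0 in both RBE libraries. The limma call had an adjusted p of 0.000584, but NSDHL passed the filter through LM3 alone, so a difference was built in. No fold is given against a listed 0, which in FPKM can be a failed estimate. NSDHL was the only member listed at 0 in any library, and 26 members were at 10 FPKM or more in all 4. None of 24 housekeeping genes was at 0 in any library, and the lowest of their values was 7.27 FPKM. Of 1259 genes with at least 50 FPKM in both LM3 libraries, 12 were listed at 0 in both RBE libraries, and of 1226 with at least 50 FPKM in both RBE libraries, 4 were listed at 0 in both LM3 libraries.

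The neighbours of NSDHL were not all silent in RBE. CETN2, a centrin gene that starts 190 bases away on the other strand, had 60.9 FPKM (si-FENDRR) and 55.9 FPKM (si-NC) in LM3, against 69.6 FPKM (si-FENDRR) and 75.4 FPKM (si-NC) in RBE. Its LM3 and RBE values were of like size. ZNF185, at 44713 bases downstream, had 0.615 FPKM (si-FENDRR) and 0.542 FPKM (si-NC) in LM3, against 1.12 FPKM (si-FENDRR) and 1.22 FPKM (si-NC) in RBE. On the other side, MAGEA3, a cancer-testis antigen gene, had 12.6 FPKM (si-FENDRR) and 14.8 FPKM (si-NC) in LM3 and was listed at 0 in both RBE libraries, as was MAGEA6, which had 1.56 FPKM (si-FENDRR) and 0.938 FPKM (si-NC) in LM3. These neighbours are the genes reaching 1 FPKM that lie nearest to NSDHL, and they were named after their values were seen. Whether RBE cells lack NSDHL RNA, a part of the gene or only its estimate was not tested.

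**Figure D3:**
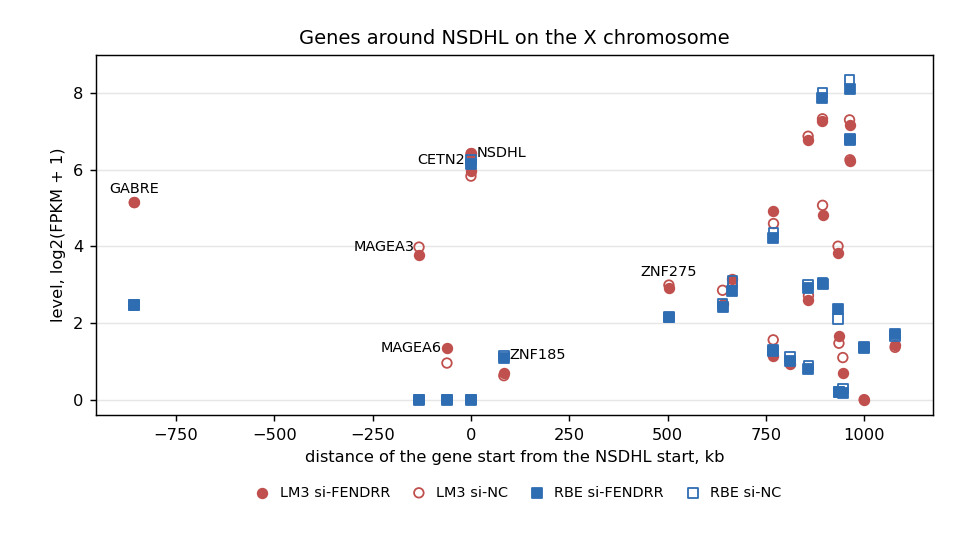
Levels, as log2(FPKM + 1), of genes that reach 1 FPKM within 1000 kb of either end of NSDHL, plotted by the distance of the gene start from the NSDHL start in kb; circles are LM3 and squares RBE, filled for si-FENDRR and open for si-NC. NSDHL, MAGEA3 and MAGEA6 have their RBE squares at 0, while CETN2, beside NSDHL, is at 55.9 to 75.4 FPKM in all 4 libraries.

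Of the 5 sterol sensors, SCAP was called higher in LM3 (32.3% of all genes), and SREBF2 and INSIG2 lower (26.4% of all genes). SREBF2 (chr22:41833079-41907308, plus strand), which encodes SREBP-2, the main activator of the synthesis genes, had 27.7 FPKM (si-FENDRR) and 35.8 FPKM (si-NC) in LM3, against 63.5 FPKM (si-FENDRR) and 79.7 FPKM (si-NC) in RBE. No LM3 value reached an RBE value (-1.15 ± 0.11, adjusted p = 0.00339), the direction of most enzymes. SREBF1, which encodes the SREBP-1 factors that favour fatty acid genes, had 44.5 FPKM (si-FENDRR) and 52.3 FPKM (si-NC) in LM3, against 43.8 FPKM (si-FENDRR) and 46.4 FPKM (si-NC) in RBE. Its ranges overlapped and it did not pass the test (0.10 ± 0.11, adjusted p = 0.502). SCAP, the escort of SREBPs, had 40.3 FPKM (si-FENDRR) and 41.3 FPKM (si-NC) in LM3, against 23.3 FPKM (si-FENDRR) and 24.1 FPKM (si-NC) in RBE, a difference of 0.76 ± 0.11, adjusted p = 0.00842. INSIG1, whose protein holds SCAP back when sterols are plentiful, had 64.9 FPKM (si-FENDRR) and 59.9 FPKM (si-NC) in LM3, against 64.9 FPKM (si-FENDRR) and 58.6 FPKM (si-NC) in RBE, and its difference was 0.02 ± 0.11, adjusted p = 0.907. INSIG2, its less abundant paralog here, had 6.17 FPKM (si-FENDRR) and 8.08 FPKM (si-NC) in LM3, against 13.8 FPKM (si-FENDRR) and 14.1 FPKM (si-NC) in RBE, a difference of -0.89 ± 0.14, adjusted p = 0.0106.

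Of the 5 uptake and transport genes, 3 were called higher in LM3 (32.3% of all genes) and 1 lower (26.4% of all genes), with a median difference of 1.56. SCARB1 (chr12:124776856-124882668, minus strand), the receptor for selective uptake from high-density lipoprotein, had 237 FPKM (si-FENDRR) and 236 FPKM (si-NC) in LM3, against 70.9 FPKM (si-FENDRR) and 66.7 FPKM (si-NC) in RBE. It was the third most abundant member in both LM3 libraries, at 3.44 times the RBE mean (1.77 ± 0.10, adjusted p = 0.00156). NPC1L1 (chr7:44512535-44541315, minus strand), the sterol uptake protein of enterocytes and human hepatocytes and the target of ezetimibe, had 13.7 FPKM (si-FENDRR) and 13.5 FPKM (si-NC) in LM3, against 0.897 FPKM (si-FENDRR) and 0.7998 FPKM (si-NC) in RBE. The LM3 mean was 16.02 times the RBE mean, the widest gap of any member present in both lines in this direction (2.98 ± 0.13, adjusted p = 0.000986). It passed the filter through LM3 alone, and the fitted difference was 3.85 with a pseudocount of 0.1 and 1.67 with one of 5. NPC1 (chr18:23506184-23586898, minus strand), the lysosomal membrane protein that passes cholesterol out of the lysosome, had 119 FPKM (si-FENDRR) and 111 FPKM (si-NC) in LM3, against 37.2 FPKM (si-FENDRR) and 39.3 FPKM (si-NC) in RBE, a mean 3.004 times the RBE mean (1.56 ± 0.11, adjusted p = 0.0022).

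NPC2, the soluble lysosomal partner that hands cholesterol to NPC1, had 120.2 FPKM (si-FENDRR) and 126 FPKM (si-NC) in LM3, against 118 FPKM (si-FENDRR) and 108 FPKM (si-NC) in RBE. It did not pass the test (0.12 ± 0.11, adjusted p = 0.4), and whether it differed from NPC1 in this was not tested. STARD4, a cytosolic sterol carrier, had 7.69 FPKM (si-FENDRR) and 7.72 FPKM (si-NC) in LM3, against 17.3 FPKM (si-FENDRR) and 16.5 FPKM (si-NC) in RBE, lower in LM3 by the test (-1.04 ± 0.12, adjusted p = 0.00499). Summed over the 5 genes, the level was 497.5 FPKM (si-FENDRR) and 493.9 FPKM (si-NC) in LM3, against 244.5 FPKM (si-FENDRR) and 231.2 FPKM (si-NC) in RBE.

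The export transporters had low levels, under 2 FPKM in every library, and ABCG1 was under 1 FPKM in both LM3 libraries. ABCA1, which loads cholesterol onto lipid-poor apolipoprotein A-I, had 0.971 FPKM (si-FENDRR) and 1.57 FPKM (si-NC) in LM3, against 1.103 FPKM (si-FENDRR) and 1.21 FPKM (si-NC) in RBE, with overlapping lines (0.06 ± 0.16, adjusted p = 0.761). ABCG1, which exports to mature high-density lipoprotein, had 0.0737 FPKM (si-FENDRR) and 0.219 FPKM (si-NC) in LM3, against 1.09 FPKM (si-FENDRR) and 1.36 FPKM (si-NC) in RBE. It passed the filter through RBE alone, so a difference was built in, and its fitted value of -0.96 ± 0.15, adjusted p = 0.0105, was set by the pseudocount: it was -2.48 with a pseudocount of 0.1 and -0.27 with one of 5. NR1H2 (LXR-beta) had 64.9 FPKM (si-FENDRR) and 78.6 FPKM (si-NC) in LM3, against 43.3 FPKM (si-FENDRR) and 41.2 FPKM (si-NC) in RBE, and NR1H3 (LXR-alpha) had 21.6 FPKM (si-FENDRR) and 19.6 FPKM (si-NC) in LM3, against 13.7 FPKM (si-FENDRR) and 12.6 FPKM (si-NC) in RBE. Both were higher in LM3 (0.74 ± 0.14, adjusted p = 0.0151 for NR1H2, and 0.61 ± 0.11, adjusted p = 0.0158 for NR1H3). SOAT1, which esterifies cholesterol for storage in lipid droplets, had 16.5 FPKM (si-FENDRR) and 18.6 FPKM (si-NC) in LM3, against 8.27 FPKM (si-FENDRR) and 8.54 FPKM (si-NC) in RBE. Its LM3 mean was 2.09 times the RBE mean (0.98 ± 0.12, adjusted p = 0.00591).

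No source used here gives the strand setting of the libraries, so reads of genes on opposite strands could be mixed. Exons of 14 members share bases with an antisense gene, among them ACAT2 with TCP1, MVK with MMAB, NPC1 with RMC1, SREBF1 with RAI1, NPC2 with ISCA2 and NR1H3 with ACP2, and HMGCS1, IDI1, FDPS, FDFT1, LSS, CYP51A1, SREBF2 and STARD4 with noncoding antisense genes. On the same strand, NPC2 also shares an exon with the small RNA gene MIR4709.

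Wider lists of genes around the pathway were counted in the same fit, where 32.3% of all genes were called higher and 26.4% lower in LM3, with a median difference of 0.09. The counts include genes that passed the filter through a single line, among them CD36, SORL1, CES1, CYP27A1 and CYP7B1. For such genes a difference was built in. Of 11 genes of SREBP processing and sterol-regulated degradation, 2 were called higher and 7 lower in LM3, with a median difference of -0.46. TMEM97, a sterol-regulated binding partner of NPC1, had 22.3 FPKM (si-FENDRR) and 14.4 FPKM (si-NC) in LM3, against 53.6 FPKM (si-FENDRR) and 45.8 FPKM (si-NC) in RBE (-1.42 ± 0.14, adjusted p = 0.00408). MBTPS2, the site-2 protease that frees SREBPs, had 3.39 FPKM (si-FENDRR) and 3.84 FPKM (si-NC) in LM3, against 7.36 FPKM (si-FENDRR) and 7.53 FPKM (si-NC) in RBE (-0.87 ± 0.13, adjusted p = 0.00848), and shares exon bases with YY2. Above them in LM3 were the endoplasmic reticulum ubiquitin ligases RNF145 and SYVN1: RNF145 had 13.2 FPKM (si-FENDRR) and 13.3 FPKM (si-NC) in LM3, against 5.11 FPKM (si-FENDRR) and 7.60 FPKM (si-NC) in RBE (0.97 ± 0.17, adjusted p = 0.0134). SYVN1, which shares exon bases with the ribosomal protein gene FAU, had 29.3 FPKM (si-FENDRR) and 24.7 FPKM (si-NC) in LM3, against 14.9 FPKM (si-FENDRR) and 15.9 FPKM (si-NC) in RBE (0.77 ± 0.14, adjusted p = 0.0148).

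Of 14 genes of the isoprenoid branches, 2 were called higher and 4 lower in LM3, with a median of -0.18, near the median of the 33 genes (-0.19). DHDDS, a subunit of the dolichol-making prenyltransferase, was higher in LM3 (1.00 ± 0.26, adjusted p = 0.035), as was COQ2, of ubiquinone synthesis (0.49 ± 0.13, adjusted p = 0.0397). PDSS1, which makes the ubiquinone side chain, was lower in LM3 (-0.95 ± 0.12, adjusted p = 0.00649), as was DOLK, the dolichol kinase (-0.78 ± 0.11, adjusted p = 0.00844). Branches from farnesyl diphosphate thus held calls in both directions.

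Of 13 lipoprotein receptors and adaptors, 11 were tested, of which 7 were called higher and 3 lower in LM3, with a median of 0.54. LRP8, an apolipoprotein E receptor, had 24.5 FPKM (si-FENDRR) and 25.0 FPKM (si-NC) in LM3, against 4.32 FPKM (si-FENDRR) and 3.97 FPKM (si-NC) in RBE (2.33 ± 0.12, adjusted p = 0.0013). CD36, a scavenger receptor, had 9.43 FPKM (si-FENDRR) and 6.60 FPKM (si-NC) in LM3, against 0.0118 FPKM (si-FENDRR) and 0 FPKM (si-NC) in RBE, the si-NC library being listed at 0. LSR, a lipolysis-stimulated receptor that also serves in tricellular junctions, had 0.888 FPKM (si-FENDRR) and 1.47 FPKM (si-NC) in LM3, against 17.4 FPKM (si-FENDRR) and 15.0 FPKM (si-NC) in RBE (-2.99 ± 0.19, adjusted p = 0.00182). SORL1, a sorting receptor, was under 0.1 FPKM in both LM3 libraries and had 2.31 FPKM (si-FENDRR) and 2.26 FPKM (si-NC) in RBE.

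Of 19 sterol transfer proteins with the lysosomal lipase, 17 were tested, 5 were called higher and 2 lower in LM3, with a median of 0.23. GRAMD1A, which moves cholesterol from the plasma membrane to the endoplasmic reticulum, had 111 FPKM (si-FENDRR) and 127 FPKM (si-NC) in LM3, against 20.5 FPKM (si-FENDRR) and 19.0 FPKM (si-NC) in RBE (2.53 ± 0.13, adjusted p = 0.00128). OSBPL1A, an oxysterol-binding protein relative, had 21.0 FPKM (si-FENDRR) and 21.8 FPKM (si-NC) in LM3, against 7.94 FPKM (si-FENDRR) and 6.46 FPKM (si-NC) in RBE (1.46 ± 0.14, adjusted p = 0.00368). LIPA, the lipase that frees cholesterol from lysosomal esters, had 23.3 FPKM (si-FENDRR) and 22.9 FPKM (si-NC) in LM3, against 74.7 FPKM (si-FENDRR) and 93.4 FPKM (si-NC) in RBE (-1.81 ± 0.14, adjusted p = 0.00239). So LIPA and NPC1, which act one after the other in the lysosome, were called in opposite directions. STARD10, a phospholipid transfer protein whose exon overlaps ARAP1, was lower in LM3 (-0.90 ± 0.11, adjusted p = 0.00629).

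Of 14 genes of ester handling, lipoprotein remodelling and LXR partners, 6 were tested, with 2 called higher and 2 lower in LM3 and a median of -0.12. CES1, a carboxylesterase of hepatocytes, had 522 FPKM (si-FENDRR) and 605 FPKM (si-NC) in LM3, and was listed at 0 in both RBE libraries. RXRA, a partner receptor of the LXRs, was higher in LM3 (1.34 ± 0.13, adjusted p = 0.0035), and its paralog RXRB lower (-0.73 ± 0.15, adjusted p = 0.0213). LCAT, the plasma enzyme that esterifies cholesterol on lipoproteins, had 2.07 FPKM (si-FENDRR) and 1.53 FPKM (si-NC) in LM3, against 6.16 FPKM (si-FENDRR) and 6.29 FPKM (si-NC) in RBE (-1.37 ± 0.15, adjusted p = 0.00459), with exon bases shared with SLC12A4.

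Of 14 genes of oxysterol and bile acid synthesis, 9 were tested, with 2 called higher and 4 lower in LM3 and a median of -0.07. CYP27A1, the mitochondrial sterol 27-hydroxylase, had 83.3 FPKM (si-FENDRR) and 89.8 FPKM (si-NC) in LM3, against 0.219 FPKM (si-FENDRR) and 0.160 FPKM (si-NC) in RBE (6.20 ± 0.13, adjusted p = 0.000584). CYP27A1 passed the filter through LM3 alone, so a difference was built in. BAAT, which conjugates bile acids to amino acids, had 98.3 FPKM (si-FENDRR) and 95.2 FPKM (si-NC) in LM3, against 4.03 FPKM (si-FENDRR) and 3.50 FPKM (si-NC) in RBE (4.36 ± 0.12, adjusted p = 0.000612). Both were far higher in LM3, whereas CYP7A1 and CYP8B1, enzymes of the classical bile acid pathway, were listed at 0 in all 4 libraries. NR0B2 (SHP), a repressor induced by the bile acid receptor, had 6.93 FPKM (si-FENDRR) and 4.74 FPKM (si-NC) in LM3, against 35.3 FPKM (si-FENDRR) and 31.6 FPKM (si-NC) in RBE (-2.35 ± 0.14, adjusted p = 0.00159). CYP7B1, the oxysterol 7-alpha-hydroxylase, was listed at 0 in LM3 and had 1.33 FPKM (si-FENDRR) and 1.25 FPKM (si-NC) in RBE.

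Of 11 lipogenic targets of SREBP-1, 4 were called higher and 4 lower in LM3, with a median of 0.03. FADS2, a fatty acid desaturase that shares exon bases with FEN1, had 202 FPKM (si-FENDRR) and 207 FPKM (si-NC) in LM3, against 16.9 FPKM (si-FENDRR) and 15.4 FPKM (si-NC) in RBE (3.58 ± 0.11, adjusted p = 0.000697). ELOVL6, a fatty acid elongase, had 25.5 FPKM (si-FENDRR) and 20.4 FPKM (si-NC) in LM3, against 6.06 FPKM (si-FENDRR) and 5.48 FPKM (si-NC) in RBE (1.82 ± 0.13, adjusted p = 0.00199). ACLY, which makes cytosolic acetyl-CoA from citrate, had 65.3 FPKM (si-FENDRR) and 70.6 FPKM (si-NC) in LM3, against 239 FPKM (si-FENDRR) and 231 FPKM (si-NC) in RBE (-1.78 ± 0.11, adjusted p = 0.00166). LPIN1, a phosphatidate phosphatase, had 6.44 FPKM (si-FENDRR) and 5.53 FPKM (si-NC) in LM3, against 28.2 FPKM (si-FENDRR) and 34.0 FPKM (si-NC) in RBE (-2.20 ± 0.16, adjusted p = 0.00222). Calls in the lipogenic list thus went equally often in each direction.

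The comparison of si-FENDRR with si-NC asks what lowering FENDRR does to these genes. FENDRR itself (chr16:86474529-86509099, minus strand, GENCODE 29) was listed at 0 FPKM in all 4 libraries, so the knockdown could not be checked. In limma, with line as a term and the lines as replicates, 0 of the 33 genes and 0% of all genes passed an adjusted p of 0.05, and the smallest adjusted p of a member was 0.959. At an unadjusted p under 0.05 there were 2 members, HMGCS1 and SREBF2, and 657 of the 15930 genes. No other tool was run. For 27 of the 33 genes, transfection differences within LM3 and within RBE were both smaller in size than the line difference under either transfection. The share of all genes with this pattern was not counted. For NSDHL, NPC1L1 and ABCG1, among the 27, the line difference was built in. The median size of the line difference was 0.89 for the members and 0.65 over all genes tested.

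Within a line there was 1 library per transfection, so no test was possible and the values describe those libraries. By FPKM + 1, which damps low values, 0 members were at least 2-fold apart in LM3, against 2.13% of all genes, and 0 in RBE, against 1.75%. By FPKM alone ABCG1 was further apart in LM3, at under 1 FPKM in both libraries (0.0737 FPKM (si-FENDRR) and 0.219 FPKM (si-NC) in LM3). At 1.25-fold, again by FPKM + 1, there were 4 in LM3, against 23.2%, and 3 in RBE, against 18.8%. The members' differences, si-FENDRR minus si-NC on the log2(FPKM + 1) scale, ran from -0.38 to 0.51 in LM3 and from -0.62 to 0.32 in RBE, with a median size of 0.12 in LM3 and 0.08 in RBE, against 0.15 in LM3 and 0.14 in RBE over all genes. The 5th to 95th percentile over all genes was -0.49 to 0.56 in LM3, where no member lay outside it, and -0.44 to 0.48 in RBE, where HMGCS1 and EBP lay outside.

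With si-FENDRR, 8 members were higher in both lines (26.9% of all genes) and 14 lower in both lines (21.8% of all genes). With libraries scaled to equal totals these counts were 6 higher and 13 lower, and with median-of-ratios scaling 5 higher and 16 lower, where all genes also moved to 21.8% higher and 27.4% lower. HMGCS1 and SREBF2 were the members lower in both lines by at least 0.2, a pattern shown by 3.61% of all genes. For HMGCS1 the difference was -0.25 in LM3 and -0.48 in RBE (-0.36 ± 0.12, adjusted p = 0.959 over both). For SREBF2 it was -0.36 in LM3 and -0.32 in RBE (-0.34 ± 0.11, adjusted p = 0.959 over both). Neither passed the adjusted threshold. Over the 18 synthesis enzymes the median was -0.08 in LM3 and -0.02 in RBE, against 0.00 in LM3 and 0.02 in RBE over all genes. IDI1 was the member higher in both lines by at least 0.2, as were 5.09% of all genes, with 0.22 in LM3 and 0.32 in RBE, although its LM3 difference was 0.18 under either other scaling.

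SQLE in LM3 and EBP in RBE had the widest transfection differences of the members. SQLE was higher with si-FENDRR than with si-NC in LM3 (0.51) and lower in RBE (-0.26). It was the only member to differ by at least 0.2 in opposite directions, as did 8.21% of all genes. EBP was lower with si-FENDRR in RBE (-0.62) and differed by -0.10 in LM3. The lowest members with si-FENDRR in LM3 were ABCA1 (-0.38), SREBF2 (-0.36) and INSIG2 (-0.34), and in RBE ABCA1 differed by -0.07 and INSIG2 by -0.03. For the 5 uptake and transport genes the median size of difference was 0.03 in LM3 and 0.08 in RBE. Over the wider lists, no gene was at least 2-fold apart in the same direction in both lines.

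**Figure D4:**
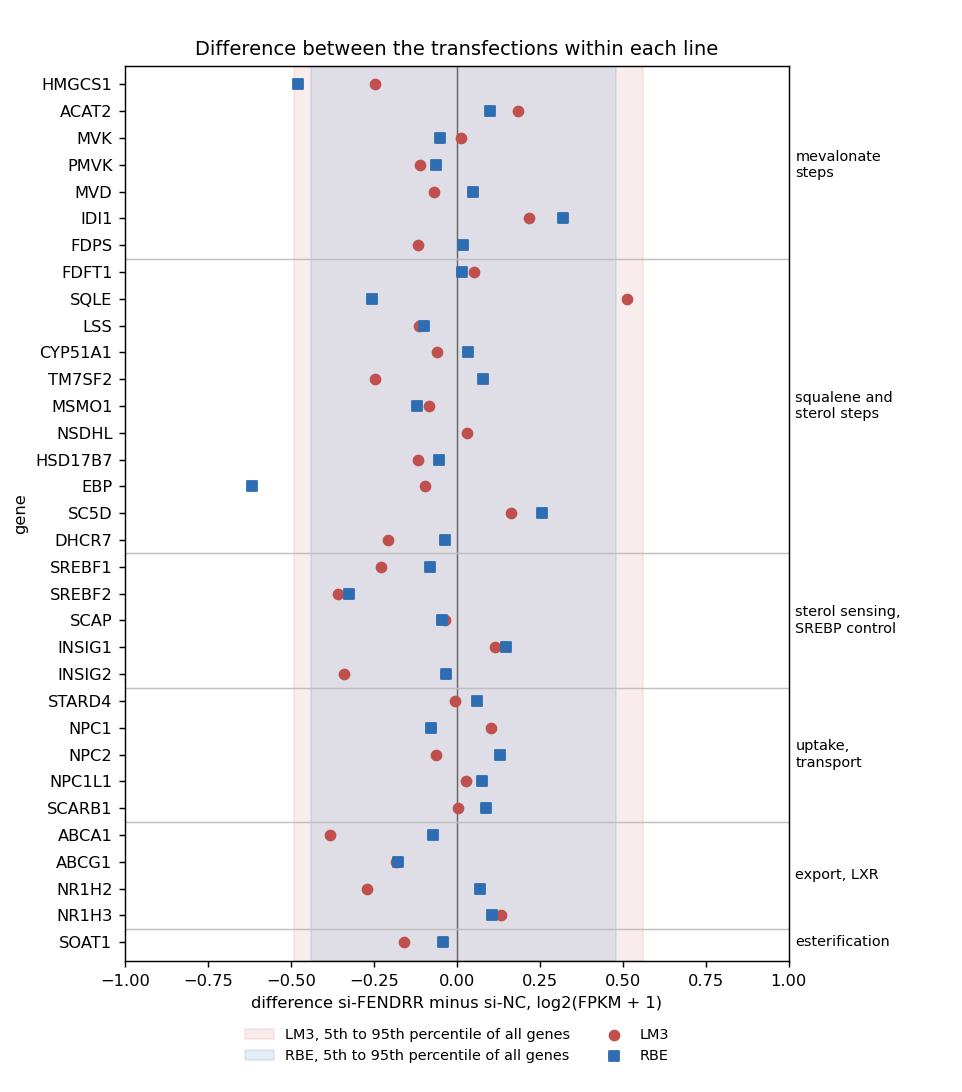
Difference si-FENDRR minus si-NC in log2(FPKM + 1) within LM3 (circles) and within RBE (squares) for the 33 genes, grouped by role, with shaded bands from the 5th to the 95th percentile of all genes tested in each line. NSDHL is drawn for LM3 alone; members lie close to 0 and mostly inside the bands; HMGCS1 (-0.48) and EBP (-0.62) in RBE lie outside, and SQLE has its points on opposite sides of 0 (0.51 in LM3, -0.26 in RBE).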

How the data were processed

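Messenger RNA of LM3 and RBE cells was sequenced 48 h after si-FENDRR or si-NC was transfected, 1 library for each line and transfection. The submitters' processing notes name FastQC, HISAT2 and the build hg38, with no versions, and the authors deposited FPKM values per gene, per the file headers. The sources used here give neither the program that estimated FPKM nor its annotation. Of 58174 gene identifiers, 57836 are in GENCODE 29, which gave coordinates and exon overlaps (96.9% of them have the same start and end as in the files, as do 31 of the 33 genes).

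Between 10.7% and 15.3% of low values were within 0.02 of a whole number of reads, so counts were not recovered, the depth is unknown and no counting interval is given. The FPKM were used as log2(FPKM + 1) in limma 3.58.1 (R 4.3.3) with a trended prior, over the 15930 genes that reach 1 FPKM, with terms for cell line and transfection, 1 residual degree of freedom and a Benjamini-Hochberg threshold of 0.05 over all genes. The pairing by line comes from the labels, since both libraries of a pair are of the same line. Promoters were RefSeq sequences on GRCh38.p14. Fold rules within a line used FPKM + 1. The fit was tested on simulated data.

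The members and the wider lists were chosen with earlier results of these data known. All 33 genes are named, with FENDRR and, of each wider list, the 2 highest and the 2 lowest tested genes in LM3 minus RBE; marker genes, neighbours of NSDHL, CYP7A1, CYP8B1, VAPA and VAPB were named outside that rule, after their values were seen. Alternatives changed the scaling, pseudocount, filter, prior and terms, and 1 library was left out at a time, in fits without the transfection term.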

Additional observations from a re-analysis of the deposited data

Results flagged for a closer look

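SQLE went in opposite directions in the lines: si-FENDRR minus si-NC was 0.51 on the log2(FPKM + 1) scale in LM3 and -0.26 in RBE. The values were 120.1 FPKM (si-FENDRR) and 84.0 FPKM (si-NC) in LM3, against 109.1 FPKM (si-FENDRR) and 130.4 FPKM (si-NC) in RBE. With 1 library per line and transfection the difference between the lines was not tested, and the size of 0.2 asked for in each line was chosen after seeing the data. Of all genes, 8.21% met that size in opposite directions.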

How the results depend on the processing

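The count of members called between LM3 and RBE was 24 under both other scalings, both other pseudocounts, no filter, a constant prior variance and without the transfection term, and 23 with an FPKM of at least 5, which leaves ABCG1 out. The share of all genes called was 24.3% with no filter and 62.4% with an FPKM of at least 5. Under the other settings just named it was 57.7% to 60.5%. With 1 library left out, an alternative added after seeing the data, it was 17 to 21, with 6 to 8 higher and 11 to 13 lower in LM3. The lines pair the libraries, and the fit without that block (no cell line term) also called 0 members between si-FENDRR and si-NC. A 1.5-fold rule on FPKM + 1 in place of 2-fold gave 1 member within RBE (EBP) and 0 within LM3. Differences that changed sign were all close to 0. With median-of-ratios scaling, si-FENDRR minus si-NC was -0.002 for FDFT1, -0.0035 for NSDHL, -0.004 for STARD4, -0.02 for NPC1 and -0.0012 for NPC2, and LM3 minus RBE was -0.09 for EBP and -0.08 for INSIG1. With libraries scaled to equal totals, si-FENDRR minus si-NC was -0.0052 for NSDHL. For these the cause was not tested. Under these settings, libraries left out apart, no other difference of a member changed sign or side of the threshold. The depth behind the values is unknown, so no counting error can be given for low levels such as those of ABCA1 and ABCG1.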

Other observations

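VAPA, an endoplasmic reticulum anchor for sterol transfer proteins, had 78.6 FPKM (si-FENDRR) and 27.9 FPKM (si-NC) in LM3, against 24.8 FPKM (si-FENDRR) and 59.7 FPKM (si-NC) in RBE. It was the one gene of the wider lists at least 2-fold apart by FPKM + 1 between transfections within either line, in opposite directions in the lines. Its paralog VAPB had 6.73 FPKM (si-FENDRR) and 6.38 FPKM (si-NC) in LM3, against 9.47 FPKM (si-FENDRR) and 4.36 FPKM (si-NC) in RBE. Both were chosen after their values were seen.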
